A study of Capra hircus with 72 samples.

Results

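FOS, FOSB, FOSL2, IER2 and DUSP1 are 5 immediate early genes that the deposited tables of goat blood and skeletal muscle list after transport. They were taken by gene name from each of 6 tables, and they are 5 of the 7558 named or unnamed genes listed in at least 1 of them. Immediate early genes are transcribed within minutes of a signal, without new protein synthesis, mostly through MAP kinase pathways that act on factors already bound to their promoters. FOS, FOSB and FOSL2 encode subunits that pair with JUN proteins to form the transcription factor AP-1. IER2 encodes a nuclear protein, and DUSP1 encodes a phosphatase that switches MAP kinases off again, so that the response limits itself. In skeletal muscle these genes are known to respond to contraction and injury, and in white blood cells to activation, stress hormones and handling of the sample.

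The libraries came from intact male Spanish goats (Capra hircus) aged 8 months, of which the study used 54, 18 per treatment. Goats travelled by livestock trailer, some for 30 min and some for 180 min, while control goats stayed in pens. Feed was withheld overnight for all of them, the work was spread over 2 days, and the animals were slaughtered. RNA sequencing covered blood after 30 min (n = 4), blood after 180 min (n = 7) and control blood (n = 7). It also covered 2 sets of muscle libraries, which the table columns name 24H and 6D without explaining the names in the sources used here, each with 9 libraries at 30 min, 9 at 180 min and 9 from controls. The labels do not tie goats to days, so the part of the day in the results was not tested.

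Library totals ran between 9.45 and 39.5 M counts, with a median of 14.7 M over the 72 libraries. The muscle library numbered 9 in each set carries the control label in its title and group field but 180 min of transport in its treatment field. It was kept with the controls, and values without it are given where they end a call. Skeletal muscle markers fit the muscle label in the 24H libraries: MB, MYH2 and CKM together summed to between 18345 and 33580 FPKM (fragments per kilobase per M mapped) after 30 min of transport, against 22132 to 44108 FPKM in controls. The 6D tables list 0 of the 11 muscle markers, so the muscle label of that set was not checked on them. In blood, the 6 listed of 9 neutrophil markers summed to at least 668 FPKM in each library of the 180 min table, and the 3 listed of 4 B cell markers to at least 444 FPKM in each library of the 30 min table.

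Each table holds only genes whose unadjusted p in the authors' own test was under 0.05. A gene missing from a table therefore has no value there, and the number of tables that list a gene follows from that choice. Here a gene is termed called if the authors' deposited table gives it an adjusted p below 0.05. The words rose and fell are kept for called genes that also had an adjusted p below 0.05 in edgeR's quasi-likelihood test, adjusted by Benjamini-Hochberg over the listed genes. Because the listed genes were preselected, that second adjusted p is smaller than one over all genes would be. The p-values set a difference between groups against the spread between these libraries. In bulk RNA, a change in the share of a cell type and a change in the RNA of each cell cannot be told apart.

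The 5 genes occur in 15 pairs of a gene and a table, 10 with a positive log2 change and 5 with a negative one. FOSL2 rose in blood after 180 min and in 24H muscle after 30 min and after 180 min. FOSB and IER2 fell in 24H muscle after 30 min. In blood, 6 of 7 pairs had a positive log2 change, whereas in muscle the 4 positive pairs were all FOSL2 and the 4 negative ones were FOSB and IER2. Among all listed genes, the change was positive in 127 of 430 in blood at 30 min and 741 of 1247 at 180 min. It was positive in 2023 of 4125 in 24H muscle at 30 min and 954 of 1961 at 180 min. In 6D muscle it was positive in 611 of 1252 and 738 of 1618. Of the 5 genes, 4 are listed in blood at 30 min, where the listed genes are 2.08% of the 20719 genes the authors adjusted over, and 3 are listed in blood at 180 min, where the listed and adjusted genes are 8.54%. In 24H muscle 3 are listed at 30 min and 2 at 180 min, beside 30.9% and 13.3% as listed and adjusted genes. In 6D muscle 2 are listed at 30 min and 1 at 180 min, beside 7.39% and 10.8% counted in the same way. By edgeR's test alone 1 of 3 passed in blood at 180 min, higher, beside 36.6% of the listed genes as higher and 16.9% as lower. All 3 passed in 24H muscle at 30 min, 1 higher and 2 lower, beside 40.5% and 41.9%, and 1 of 2 at 180 min, higher, beside 38.2% and 39.7%. In 6D muscle 0 of 2 passed at 30 min, beside 0.0799% higher and 0% lower, while both had an unadjusted edgeR p below 0.05 and FOSL2 alone passed by DESeq2, beside 46.7% of the listed genes. The 1 gene listed at 180 min there passed as higher, beside 25.2% and 31.8%. DESeq2 passed all 4 listed members in blood at 30 min, beside 82.6% of the listed genes, all 3 in blood at 180 min, beside 96.2%, and both in 24H muscle at 180 min, beside 98.2%. Scaling by library totals in edgeR passed 2 of 3 in blood at 180 min, beside 46.8%. The split of the shares depends on scaling. With TMM factors over the listed genes, 148 genes passed as higher and 345 as lower in blood at 180 min, beside 456 and 211 with the authors' factors, and 9 and 11 in 6D muscle at 30 min, beside 1 and 0. Scaling by library totals gave 1950 and 1328 in 24H muscle at 30 min, beside 1670 and 1730, and 511 and 844 at 180 min, beside 749 and 779. The median log2 change of all listed genes was -0.66 by TMM and -1.10 by the authors' factors in blood at 30 min, and 0.33 and 0.77 in blood at 180 min, while every one of the 15 pairs kept its sign. Both comparisons of a tissue set use the same control libraries, so the 30 min and 180 min changes are not independent of each other.

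**Figure D1:**
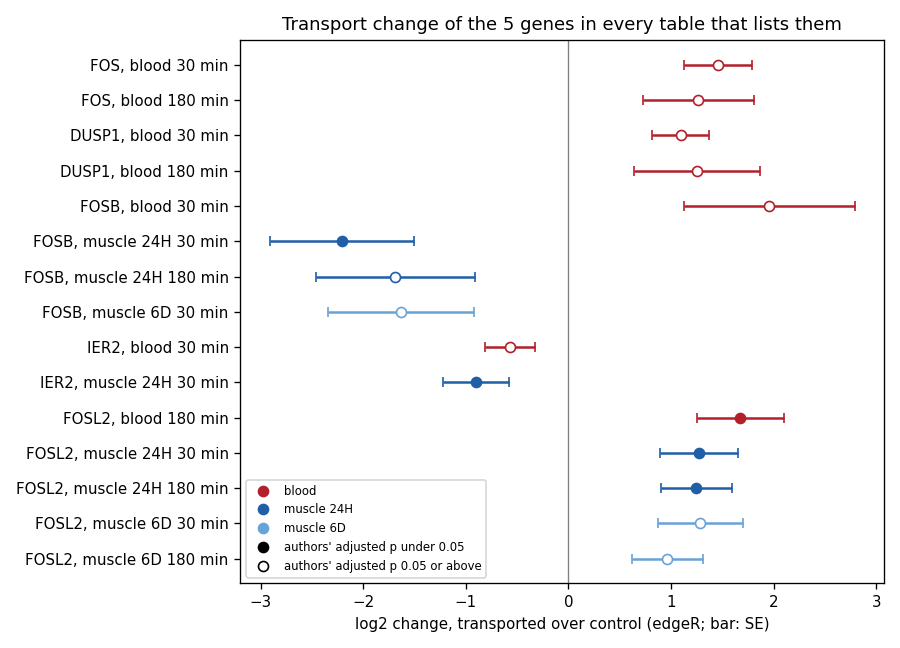
Log2 change of each gene in every table that lists it, transported over control, from edgeR's quasi-likelihood fit on the deposited counts (x axis; bars, SE). Filled points have an adjusted p under 0.05 in the authors' deposited table; FOSB lies to the right of 0 in blood (1.96) and to the left of 0 in the 3 muscle tables (between -2.21 and -1.63).

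FOS, the AP-1 subunit that gives the family its name, is listed in blood alone (ENSCHIG00000025384, chromosome 10, 16631746 to 16635227, minus strand, as the tables give it with no build named). It stood at 14.7, 35.8, 11.95 and 10.99 FPKM in the 4 goats carried for 30 min, against a lowest of 4.03, a median of 6.21 and a highest of 9.51 FPKM in the 7 control goats. All 4 transported goats lay above all 7 controls, and goat 22 stood far above the other 3. Among the 430 listed genes, 7.44% showed the same full separation upward. The mean was 727 ± 464 normalized counts at 30 min (SD, n = 4) and 264 ± 80.1 in controls (SD, n = 7). Transport gave a log2 change of 1.46 ± 0.34 (SE, edgeR quasi-likelihood adjusted p = 0.026). The authors' deposited table gave 0.335, so FOS was not called. None of the 4 listed genes was called in blood at 30 min, where the authors' deposited table calls 1.16% of its 430 listed genes as higher and 0% as lower. By edgeR alone 2 of the 4 passed, FOS and DUSP1, both higher, beside 5.35% of the listed genes passing as higher and 0% as lower. That split depends on the tool, since DESeq2 passed 117 of the 430 as higher and 238 as lower. Without goat 22 the log2 change of FOS was 0.91, with an edgeR adjusted p over 0.05, and the edgeR call was also lost without goat 21 of the 30 min group or without control goat 1.

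After 180 min, FOS ranged more widely in blood. Its level was 1.76, 5.46, 8.05, 16.4, 43.0, 25.95 and 9.85 FPKM in goats 10, 11, 13, 14, 15, 16 and 17, beside the control range of 4.03 to 9.51 FPKM. In 4 of 7 transported goats FOS lay above every control and in 1, goat 10, it lay below every control. The log2 change of 1.27 ± 0.54 (SE) had an edgeR adjusted p of 0.053, and 0.442 in the authors' deposited table. On the mean of log2(normalized count + 1) per goat the difference was smaller, 0.71 (exact permutation test, two-sided, p = 0.288), and without goat 15 the edgeR log2 change was 0.75. A direct comparison of 180 min with 30 min gave a difference of -0.62 in mean log2(FPKM + 0.1), with an adjusted p of 0.953 (exact permutation test, two-sided, over 5 such comparisons).

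FOSB, a FOS relative that also exists as a long-lived truncated isoform, is listed in blood at 30 min and in 3 muscle tables (ENSCHIG00000003296, chromosome 18, 54128257 to 54134780, plus strand). In blood its level was 1.89, 1.68, 0.489 and 0.567 FPKM in the 4 goats at 30 min. In the 7 controls it ranged between 0 and 0.55 FPKM with a median of 0.269, from 0 to 73 counts. Control goat 9 had 0 counts, which allows up to 0.0433 FPKM by counting error alone. In 3 of the 4 transported goats FOSB lay above every control, and goat 24 at 0.489 lay within the control range. This is a log2 change of 1.96 ± 0.83 (SE, edgeR adjusted p = 0.067, and 1.00 in the authors' deposited table).

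In 24H muscle FOSB fell after 30 min. Its level was 0.351 FPKM at the lowest, 0.893 at the median and 3.90 at the highest of 9 transported goats, against 0.194, 2.84 and 23.7 FPKM in 9 controls. The groups overlapped, but 8 of 9 transported goats lay below the control median and 3 controls, goats 1, 2 and 7, lay above every transported goat. The mean was 67.1 ± 57.0 normalized counts after 30 min and 309 ± 404 in controls (SD, n = 9 each). In edgeR the log2 change was -2.21 ± 0.70 (SE, edgeR adjusted p = 0.024, and 0.035 in the authors' deposited table). Without control goat 1 it was -1.54 and was still past the threshold. It was not past it on log2(normalized count + 1), where the difference was -1.22 with a limma adjusted p of 0.118 and an exact permutation p of 0.178.

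The other muscle tables that list FOSB gave negative changes that were not called. In 24H muscle at 180 min its level was 0.228, 1.22 and 5.08 FPKM at the lowest, median and highest of 9 transported goats. The log2 change there was -1.69 ± 0.77 (SE, edgeR adjusted p = 0.051, and 0.311 in the authors' deposited table), or -1.02 without control goat 1. In 6D muscle at 30 min the level was 0.569, 1.10 and 15.6 FPKM, against 1.43, 3.41 and 24.9 FPKM in controls, with goat 24 again the highest transported goat. There 6 of 9 transported goats lay below every control and controls 1, 2 and 9 lay above every transported goat. In edgeR the log2 change was -1.63 ± 0.71 (SE, edgeR adjusted p = 0.062, and 0.616 in the authors' deposited table), -2.70 without transported goat 24 and -1.40 without control goat 9.

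FOSL2, the FOS relative also known as FRA2 that usually follows FOS in time, is listed in 5 of the 6 tables, with a positive log2 change in each (ENSCHIG00000010332, chromosome 11, 71076338 to 71094230, minus strand). In blood it rose after 180 min. Its level was 99.3, 50.3, 16.6, 53.5, 60.3, 44.8 and 22.004 FPKM in goats 10, 11, 13, 14, 15, 16 and 17. The 7 controls ranged between 4.69 and 26.9 FPKM with a median of 15.9. All 7 transported goats lay above the control median and 5 lay above every control, while goats 13 and 17 lay within the control range. The mean was 1003 ± 557 normalized counts at 180 min and 313 ± 149 in controls (SD, n = 7 each). In edgeR the log2 change was 1.68 ± 0.43 (SE, edgeR adjusted p = 0.025, and 0.039 in the authors' deposited table). FOSL2 was the 1 gene called of the 3 listed, beside 5.05% of the 1247 listed genes called as higher and 0.561% as lower. With TMM factors the change was 1.17 (edgeR adjusted p = 0.038). The edgeR call was lost without control goat 1 or without control goat 6, where the highest adjusted p was 0.055.

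In 24H muscle FOSL2 rose at both times. After 30 min its level was 3.41, 5.96 and 36.9 FPKM at the lowest, median and highest of 9 goats, against 2.59, 3.71 and 5.78 FPKM in 9 controls. In 5 of the 9 transported goats it lay above every control, with goat 23 far above the next, goat 27, at 15.4 FPKM. The log2 change was 1.27 ± 0.38 (SE, edgeR adjusted p = 0.022, and 0.018 in the authors' deposited table). Without goat 23 it was 0.72 and was still past the threshold. All 3 listed genes were called in 24H muscle at 30 min, 1 higher and 2 lower, beside 18.9% of the 4125 listed genes called as higher and 18.1% as lower.

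After 180 min in the same set, FOSL2 was at 2.61, 8.95 and 23.6 FPKM at the lowest, median and highest of 9 goats, and 6 of 9 lay above every control. The log2 change was 1.25 ± 0.35 (SE, edgeR adjusted p = 0.018, and 0.024 in the authors' deposited table), with a range of 0.93 to 1.37 when each library was left out in turn. It was the 1 gene called of 2 listed, beside 7.6% of the 1961 listed genes called as higher and 6.78% as lower. The 180 min and 30 min libraries did not differ beyond their spread, at -0.03 in mean log2(FPKM + 0.1) with an adjusted p of 0.953 (exact permutation test, two-sided).

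In 6D muscle FOSL2 was not called at either time. After 30 min it was at 2.03, 7.07 and 19.6 FPKM, against 1.03, 2.69 and 7.47 FPKM in controls, again with goats 23 and 27 as the highest. The log2 change was 1.29 ± 0.41 (SE, edgeR adjusted p = 0.059, and 0.335 in the authors' deposited table). After 180 min it was at 2.32, 5.77 and 11.01 FPKM, with 8 of 9 goats above the control median, and the log2 change was 0.96 ± 0.34 (SE, edgeR adjusted p = 0.039, and 0.175 in the authors' deposited table). The edgeR call at 180 min was lost without any 1 of 7 libraries, among them control goat 9, without which the change was 0.94 (edgeR adjusted p = 0.056). The authors' deposited tables call 0.16% of the 1252 listed genes as higher and 0.0799% as lower at 30 min in this set, and 3.83% and 3.52% of 1618 at 180 min, and none of the 5 genes among them.

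**Figure D2:**
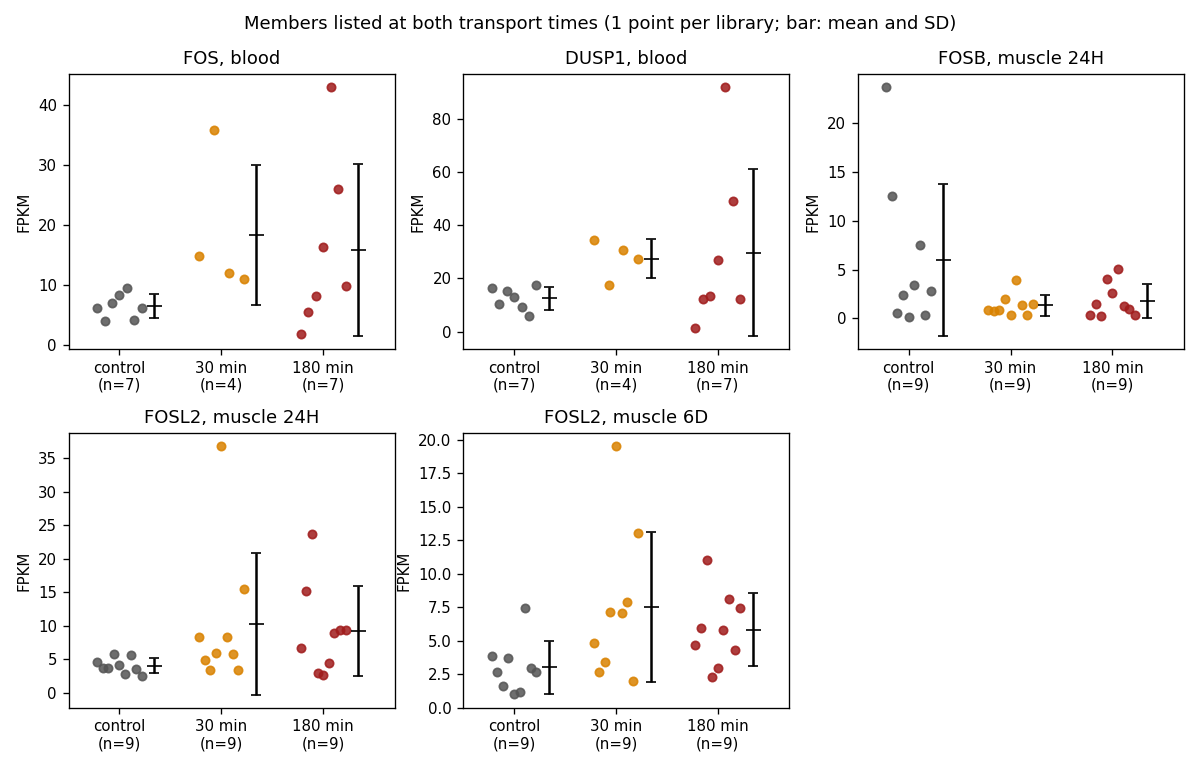
FPKM in every library for the genes that a tissue set lists at both transport times (y axes start near 0; points, 1 library each; bars, mean and SD). FOS and DUSP1 in blood spread more after 180 min (1.76 to 43.0 FPKM for FOS) than in controls, FOSB in 24H muscle has its highest values in controls, and FOSL2 has its highest values in transported goats in both muscle sets.

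IER2, the nuclear protein, had negative log2 changes in both tables that list it (ENSCHIG00000007994, chromosome 7, 97808713 to 97809387, minus strand). In 24H muscle it fell after 30 min. Its level was 7.45, 14.2 and 39.3 FPKM at the lowest, median and highest of 9 transported goats, against 11.7, 31.5 and 53.1 FPKM in controls, and 8 of 9 transported goats lay below the control median. The log2 change was -0.90 ± 0.32 (SE, edgeR adjusted p = 0.028, and 0.045 in the authors' deposited table). Without control goat 7 or transported goat 23 the edgeR adjusted p was over 0.05, at most 0.052. In blood at 30 min IER2 was at 94.9, 108, 91.6 and 80.8 FPKM in the 4 goats, against 82.8, 113 and 185 FPKM at the lowest, median and highest of 7 controls. All 4 lay below the control median, and 6 of 7 controls lay above every transported goat. The log2 change there was -0.57 ± 0.24 (SE, edgeR adjusted p = 0.067, and 1.00 in the authors' deposited table), or -0.23 with TMM factors (edgeR adjusted p = 0.414).

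DUSP1, the MAP kinase phosphatase, is listed in blood alone, as FOS is (ENSCHIG00000021879, chromosome 20, 4599677 to 4604826, minus strand). After 30 min its level was 34.4, 17.5, 30.9 and 27.3 FPKM in the 4 goats, against 5.75, 13.1 and 17.6 FPKM at the lowest, median and highest of 7 controls. In 3 of 4 goats it lay above every control, and goat 22, the goat with the most FOS, had the least DUSP1 of the 4. Its log2 change was 1.09 ± 0.28 (SE, edgeR adjusted p = 0.038, and 0.848 in the authors' deposited table), and the edgeR call was lost without any 1 of 7 libraries (adjusted p up to 0.121). After 180 min DUSP1 was at 1.48, 12.4, 13.3, 26.9, 92.2, 49.1 and 12.2 FPKM in goats 10, 11, 13, 14, 15, 16 and 17. Goats 14, 15 and 16 lay above every control and goat 10 lay below every control. Its log2 change was 1.25 ± 0.61 (SE, edgeR adjusted p = 0.065, and 0.578 in the authors' deposited table), 0.60 without goat 15, and 0.45 on the mean of log2(normalized count + 1) (exact permutation test, two-sided, p = 0.578).

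**Figure D3:**
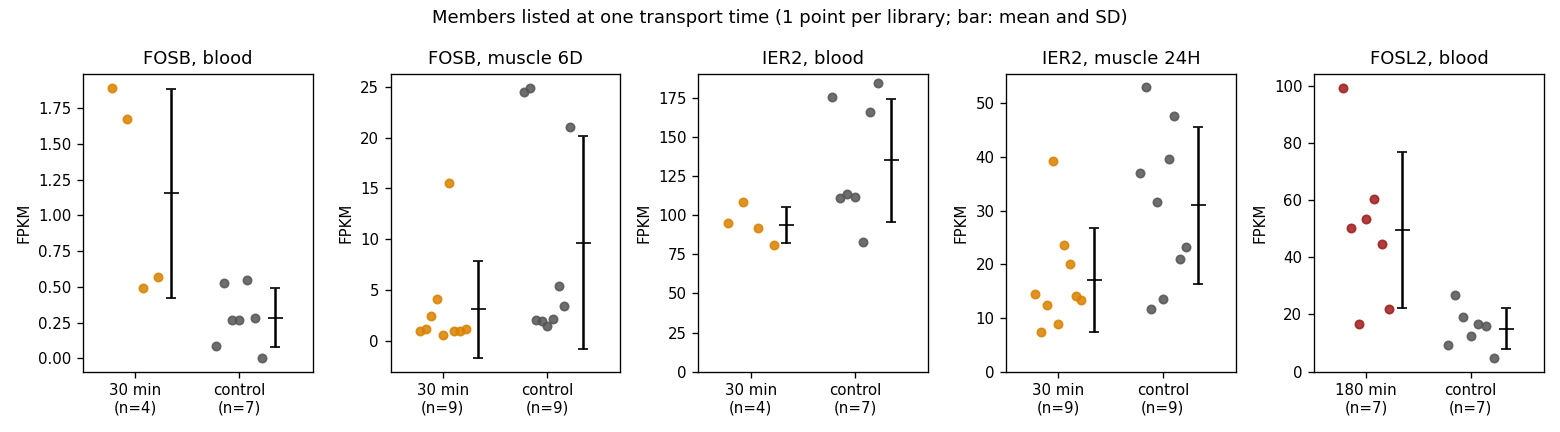
FPKM in every library for the genes that a tissue set lists at a single transport time, transported at the left and control at the right of each panel (points, 1 library each; bars, mean and SD; y axes start near 0). FOSB lies higher in 3 of 4 transported goats than in any control in blood, while 6 of 9 transported goats lie below every control in 6D muscle.

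The level of the genes in control goats, which were not transported, was compared between the tissues on FPKM, which are scaled by library total and not by the separate factors of each table. In control goats FOSB was lower in blood than in muscle, by -2.96 in mean log2(FPKM + 0.1) against the 24H set (exact permutation test, two-sided, adjusted p = 0.0075 over 5 comparisons) and by -4.04 against the 6D set (adjusted p = 0.00022, same exact test). FOSL2 was higher in blood, by 1.74 against the 24H set and by 2.34 against the 6D set (exact permutation test, adjusted p = 0.00044 for both). IER2 was higher in blood than in 24H muscle by 2.23 (exact permutation test, adjusted p = 0.00022). These 5 differences stayed past the threshold whichever library was left out. With a pseudocount of 1 the FOSB differences were smaller, -1.72 and -2.40. FOSB was listed where its controls lay below transported goats in blood and above them in muscle, so the choice of genes favours this FOSB gap. After 30 min of transport the FOSB medians were 1.12 FPKM in blood, 0.893 in 24H muscle and 1.10 in 6D muscle. Their difference was not tested. Unpaired, the 6D and 24H muscle sets did not differ beyond their spread for FOSB or FOSL2 in any of 5 comparisons (exact permutation test, adjusted p between 0.367 and 0.511). With the goat number as a replicate block, exact permutation p was between 0.031 and 0.082, and the adjusted p was 0.082 in each. FOSL2 was lower in 6D muscle, by -0.34 at 30 min, -0.48 at 180 min and -0.60 in controls. FOSB was higher there, by 0.65 at 30 min and 1.08 in controls.

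Ordered by median FPKM, FOSL2 was highest in blood after 180 min (50.3), then in control blood (15.9), in 24H muscle after 180 min (8.95), in 6D muscle after 30 min (7.07), in 24H muscle after 30 min (5.96), in 6D muscle after 180 min (5.77), in 24H controls (3.71) and in 6D controls (2.69). The 2 transport times within a muscle set did not differ beyond their spread, nor did the 2 muscle sets at the same treatment in the unpaired test. For FOSB the order was 6D controls (3.41), 24H controls (2.84), 24H muscle after 180 min (1.22), blood after 30 min (1.12), 6D muscle after 30 min (1.10), 24H muscle after 30 min (0.893) and control blood (0.269). The neighbours 6D and 24H controls did not differ beyond their spread in the unpaired test, nor did the 180 min and 30 min groups of 24H muscle. The tables give IER2 a length of 675 bases and FOSL2 of 984 bases, both multiples of 3, so these may be coding lengths and FPKM were not compared between genes.

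Whether the change on transport differed between tissues was tested on the difference of the 2 changes. For FOSB at 30 min the change in mean log2(FPKM + 0.1) was 1.73 in blood and -1.16 in 24H muscle, a difference of 2.89 (exact permutation of treatment labels within each tissue, two-sided, adjusted p = 0.022 over 5 tests). Against 6D muscle, where the change was -1.59, the difference was 3.32 (same exact permutation test, adjusted p = 0.0089). With the goat number as a replicate block, on the 4 transported and 7 control goats with both tissues, neither passed: the differences were 2.27 and 2.19 (exact permutation test, adjusted p = 0.193 for both). Without the block both stayed past the threshold whichever of the 29 libraries was left out. With a pseudocount of 1 in place of 0.1 they were smaller, 1.66 and 1.91, and still past it. FOSB was in these tables because its p was under 0.05 in each, so the choice of genes favours large changes in each. As the changes had opposite signs, it also favours a large difference between them. For IER2 at 30 min the changes of -0.48 in blood and -0.86 in 24H muscle differed by 0.38 (exact permutation test, adjusted p = 0.431). For FOSL2 at 180 min the change of 1.68 in blood was set against 0.90 in 24H and 1.02 in 6D muscle, with differences of 0.78 and 0.66 (exact permutation test, adjusted p = 0.431 for both).

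Across goats, 34 relations between genes or between tissue sets were computed on log2(FPKM + 0.1), with permutation p-values adjusted over all 34. FOS and DUSP1 followed each other over the 7 blood libraries at 180 min, with Pearson's r = 0.98 (exact permutation, adjusted p = 0.013) and Spearman's rho = 0.89 (adjusted p = 0.114). Without goats 10 and 15, the farthest from the median of FOS, r was 0.94. In control blood the same pair had r = 0.39 (exact permutation, adjusted p = 0.647), and the difference between the groups was not tested. FOSL2 did not follow FOS at 180 min (r = -0.17, exact permutation, adjusted p = 0.836), and goat 10 had the highest FOSL2 with the lowest FOS and DUSP1.

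In muscle, FOSL2 in the 6D set followed FOSL2 in the 24H set by goat number, with r = 0.89 and rho = 0.82 at 30 min (exact permutation, adjusted p = 0.013 and 0.114, n = 9). At 180 min r was 0.84 and rho 0.77 (exact permutation, adjusted p = 0.032 and 0.114, n = 9). Without the 2 farthest goats r was 0.78 at 30 min and 0.61 at 180 min. FOSB at 30 min gave r = 0.83 and rho = 0.72 between the sets (exact permutation, adjusted p = 0.029 and 0.114, n = 9), but 0.40 without goats 22 and 24, so it rests on those goats. FOSB and IER2 followed each other over the 24H controls (r = 0.86, rho = 0.83, exact permutation, adjusted p = 0.029 and 0.114, n = 9; r = 0.88 without goats 1 and 5). In control blood FOSB and FOSL2 had r = 0.93 and rho = 0.82 (exact permutation, adjusted p = 0.029 and 0.114, n = 7), or 0.57 without goats 1 and 9, where FOSB rests on 8 and 0 counts.

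**Figure D4:**
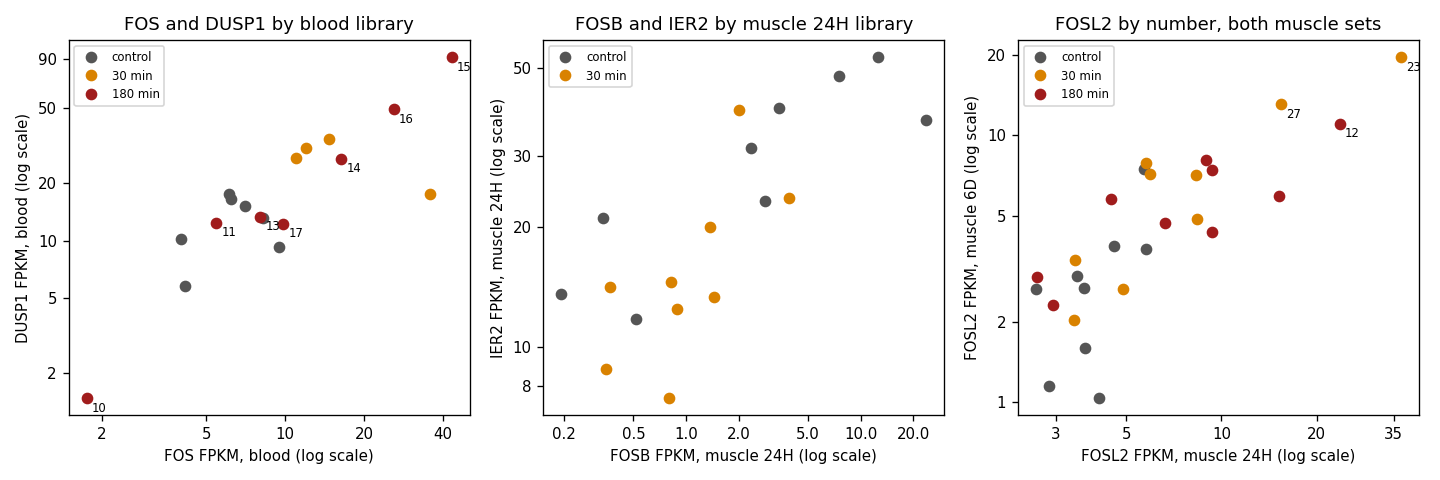
FPKM per goat on log scales: DUSP1 against FOS in blood (left), IER2 against FOSB in 24H muscle (middle) and FOSL2 in 6D against 24H muscle for libraries with the same number (right); points are libraries, coloured by treatment, with some goat numbers beside them. Goats 10 and 15 mark the ends of the blood relation at 180 min (1.76 and 43.0 FPKM of FOS), and goats 23, 27 and 12 lead FOSL2 in both muscle sets.

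The wider immediate early list holds 52 genes, 47 of them beside the 5 described above. In blood at 30 min 5 of the 47 were listed, all higher (KLF4, ZFP36, MYC, BTG1 and JUN), with a median log2 change of 0.75 in the authors' deposited table beside -1.10 over all 430 listed genes. None of these 5 passed in edgeR or was called. In blood at 180 min 3 of 47 were listed, 2 higher and 1 lower, with a median of 0.79 beside 0.78 over all listed genes. In edgeR 1 passed as higher, KLF4 (1.45 ± 0.55, SE, edgeR adjusted p = 0.045), beside 36.6% of the listed genes as higher and 16.9% as lower. In 24H muscle at 30 min 13 were listed, 2 higher and 11 lower, with a median of -0.78 beside -0.22, and 2 higher and 8 lower passed in edgeR (adjusted over the listed genes), beside the shares given above. At 180 min 11 were listed, 3 higher and 8 lower, with a median of -0.64 beside -0.30. In edgeR 1 higher and 7 lower passed, beside 38.2% and 39.7% of the listed genes. In 6D muscle 3 were listed at 30 min (1 higher, 2 lower) and 6 at 180 min (all lower), with medians of -0.59 beside -0.29 and -0.67 beside -0.40. In edgeR 0 passed at 30 min, beside 0.0799% of the listed genes as higher and 0% as lower. At 180 min 1 passed as lower, IER3 (-0.57 ± 0.24, SE, edgeR adjusted p = 0.049), beside 25.2% as higher and 31.8% as lower. The sign of the median over all listed genes depends on low counts in 3 of these tables. Over genes averaging at least 10 normalized counts it was 0.18 in 24H muscle at 30 min (3884 genes), 0.19 at 180 min (1724 genes) and 0.34 in 6D muscle at 30 min (1049 genes) in edgeR.

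Among these genes PLK2, a polo-like kinase, fell in 24H muscle, by a log2 change of -1.02 ± 0.34 at 30 min and -1.20 ± 0.32 at 180 min (SE, edgeR adjusted p = 0.025 and 0.016; 0.034 and 0.019 in the authors' deposited tables). IER5L, a relative of the IER2 family, fell there at 30 min (-1.03 ± 0.37, edgeR adjusted p = 0.028; 0.043 in the authors' deposited table). TIPARP, an ADP-ribosyltransferase, rose there at 30 min (0.95 ± 0.24, edgeR adjusted p = 0.021; 0.008 in the authors' deposited table).

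Of 38 AP-1 partners and upstream kinases and factors, 13 were listed in 24H muscle at 30 min, 10 higher and 3 lower, with a median log2 change of 0.36 in the authors' deposited table, beside -0.22 over all listed genes there and 0.18 over those averaging at least 10 normalized counts in edgeR. Of the 13, 9 passed in edgeR as higher and 2 as lower, beside 40.5% and 41.9% of all listed genes. RPS6KA3, the ERK-activated kinase RSK2, rose there (0.68 ± 0.16, edgeR adjusted p = 0.020; 0.0053 in the authors' deposited table), after 180 min in the same set (0.90 ± 0.26, edgeR adjusted p = 0.019; 0.034 in the authors' deposited table) and after 180 min in 6D muscle (0.88 ± 0.21, edgeR adjusted p = 0.012; 0.011 in the authors' deposited table). MKL2, a coactivator of the factor SRF, rose in 24H muscle at 30 min (0.37 ± 0.11, edgeR adjusted p = 0.021; 0.017 in the authors' deposited table). MAPK3, the kinase ERK1, fell there (-0.34 ± 0.12, edgeR adjusted p = 0.025; 0.035 in the authors' deposited table). In blood at 180 min 7 of the 38 were listed, 5 higher and 2 lower. Of these, 3 higher and 1 lower passed in edgeR, beside 36.6% and 16.9% of all listed genes. JDP2, an AP-1 repressor, rose there by 1.32 ± 0.29 and MAPK14, the kinase p38 alpha, by 1.45 ± 0.34 (SE, edgeR adjusted p = 0.016 and 0.018; 0.0067 and 0.016 in the authors' deposited table). The list had 2 listed genes in blood at 30 min, both lower, 5 in 24H muscle at 180 min (3 higher, 2 lower), 4 in 6D muscle at 30 min (2 higher, 2 lower) and 5 in 6D muscle at 180 min (3 higher, 2 lower).

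The genes whose pattern was most like each member were ranked by the correlation of deviations from the group means, as a description. For FOS in blood at 180 min these were CLEC4A, KLF4 and CEBPB (r of 0.96, 0.95 and 0.95 over 14 libraries, of 846 genes ranked), and CEBPB also led for DUSP1 (0.96). For FOSL2 in the same libraries they were THBD, SIRPB2 and IQSEC1 (0.90, 0.87 and 0.86). For FOS in blood at 30 min ICAM1, GLUL and KLF4 led (0.75, 0.73 and 0.70 over 11 libraries), and NFKBIA led for DUSP1 (0.79). EGR1, a zinc finger factor and itself an immediate early gene, was first or second for FOSB in the 3 muscle tables (0.85 in 24H at 30 min, 0.93 in 24H at 180 min and 0.85 in 6D at 30 min, over 18 libraries each). For IER2 in 24H muscle KLF2, GRASP and EGR1 led (0.89, 0.87 and 0.84). For FOSL2 in muscle the leading gene differed by table: MYH14 (0.85) and POLR3E (0.84) in the 24H set at 30 min and 180 min, PSME4 (0.90) and FKBP5 (0.82) in the 6D set at 30 min and 180 min.

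Markers of other cells were among the listed genes too. Of the 1247 genes listed in blood at 180 min, 741 were higher and 506 lower. The authors called 5.05% of them as higher and 0.561% as lower. There 6 of 9 neutrophil markers were listed, all higher and 2 of them called. They summed to between 3385 and 18095 FPKM in transported goats (median 6611), against 668 to 5888 FPKM in controls (median 2436). Goat 10, with the highest FOSL2 and the lowest FOS and DUSP1, had the highest sum. The 3 of 6 listed monocyte and macrophage markers, all higher and 1 called, summed to between 180 and 632 FPKM, against 59.3 to 216 FPKM in controls. Goats 15 and 16, the highest in FOS and DUSP1, had the highest sums (630 and 632 FPKM). Of 7 T and NK markers 5 were listed, 1 higher and 4 lower, with 1 called as higher and 1 as lower. Their sums were 483 to 832 FPKM in transported goats and 477 to 837 FPKM in controls. The part of these cells in the blood changes was not tested.

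In blood at 30 min 3 of 4 B cell markers were listed, all lower and 0 called. Of the 430 genes listed there, 303 were lower and 127 higher. The B cell marker sums were 444 to 686 FPKM in transported goats, against 446 to 1689 FPKM in controls. In 24H muscle at 30 min, where FOSB and IER2 fell, 6 of 9 endothelial and mural markers were listed, all lower and 5 of them called. Of the 4125 genes listed there, 2102 were lower and 2023 higher, and 18.1% were called as lower and 18.9% as higher. The endothelial and mural marker sums were 25.2 to 48.8 FPKM in transported goats, against 31.6 to 79.1 FPKM in controls. At 180 min in that set 5 of 9 were listed, all lower and 0 called. Their sums were 13.1 to 37.2 FPKM, against 23.4 to 59.8 FPKM in controls. There, where FOSL2 rose, CD163 was the 1 listed of 6 monocyte and macrophage markers and was called higher. It was at 0.325 to 1.77 FPKM in transported goats (median 1.17), against 0.118 to 0.945 FPKM in controls (median 0.302). Of the 1961 genes listed there, 954 were higher and 1007 lower, and 7.6% were called as higher and 6.78% as lower. Of 9 neutrophil markers 3 were listed there, 2 higher and 1 lower and 0 called. Their sums were 3.04 to 17.2 FPKM, against 4.02 to 11.4 FPKM in controls. At 30 min in 24H muscle, where FOSL2 also rose, 3 of 6 monocyte and macrophage markers were listed, 2 higher and 1 lower. Of these, 0 were called as higher and 1 as lower. Their sums were 1.12 to 3.46 FPKM, against 0.907 to 3.57 FPKM in controls. In 24H muscle at 30 min 2 of 5 leukocyte markers were listed, both lower and 1 called (7.05 to 18.9 FPKM, against 8.89 to 29.0 FPKM in controls). The part of endothelial cells, macrophages and other leukocytes in the muscle changes was not tested.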

How the data were processed

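Blood and muscle RNA was sequenced by the submitters, and the aligner, counter and genome build were not given in the sources used here. Per the file headers, each of 6 tables holds raw counts, normalized signal (counts divided by the authors' size factors), FPKM, log2 fold change, p-value and adjusted p-value per gene. The authors' adjusted p-values were read as deposited, and the number of genes adjusted over was recovered from them to a tolerance of 1e-06. With that number 31 of 430 adjusted p-values were reproduced in blood at 30 min and 846 of 849 in blood at 180 min. In muscle it was 1872 of 1874 in the 24H set at 180 min and all of those counted in the others. The 849 are the adjusted genes among the 1247 listed in blood at 180 min. No other sample columns were present.

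The deposited counts of all listed genes in a table were tested with edgeR 4.0.16 (R 4.3.3) by the quasi-likelihood test, with the authors' size factors, a threshold of 0.05 and Benjamini-Hochberg adjustment. The SE of an edgeR log2 change was derived from that test, as the absolute change divided by the square root of the F statistic. DESeq2 1.42.0, limma 3.58.1 on log2(normalized count + 1), other scalings, a minimum mean of 10 normalized counts, exact permutation tests and leaving out each library were alternatives. FPKM were tested as log2(FPKM + 0.1) by exact permutation (Python 3.11.15, numpy 2.4.6, scipy 1.17.1); all arrangements were enumerated where resampling had been planned. The edgeR fits and exact tests were tested on simulated data. Counting limits cover counting error only, with 3 counts as the limit for a count of 0.

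The members and lists were chosen with earlier results of these data known. Named genes were the members, list genes called by the authors (up to 6 per table by smallest p) and the 3 most alike genes per member and table, among genes averaging 50 or more normalized counts. KLF4, ZFP36, MYC, BTG1, JUN and IER3 were also named, after their values were seen. Library numbers are read as goat numbers. Between 24H and 6D muscle, deviations of same-numbered libraries correlated by more than 0.1 in 9 of 9 control and 9 of 9 180 min pairs, and in 6 of 9 pairs at 30 min. No reference sequence was used.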

Additional observations from a re-analysis of the deposited data

Results flagged for a closer look

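In 25 groups of a gene and a tissue set, 5 held 1 library whose gap to its nearest neighbour was large for the range of its group by Dixon's criterion. For normally distributed values chance meets it in about 1 of 20 groups. It was applied to FPKM without a log, whose skew it does not allow for, so an excess over chance was not shown. Blood FOS at 30 min was 35.8 FPKM in goat 22. FOSB at 30 min was highest in goat 24 in both muscle sets, at 3.90 FPKM in 24H and 15.6 FPKM in 6D muscle. FOSL2 at 30 min was 36.9 FPKM in goat 23 in 24H muscle, and FOSL2 in control 6D muscle was 7.47 FPKM in goat 7. The transport change of FOSB at 30 min differed between tissues, being higher in blood than in 24H muscle by 2.89 and than in 6D muscle by 3.32 in mean log2(FPKM + 0.1), by the exact permutation tests given above. With the goat number as a replicate block the differences were 2.27 and 2.19 and did not pass (adjusted exact permutation p = 0.193 for both). FOSB was listed in each tissue because its p was under 0.05 there, with opposite signs, so that choice favours a large difference.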

How the results depend on the processing

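The log2 changes against control kept their direction in all settings tried, while their size and their side of the 0.05 threshold moved; the cause was not tested. DUSP1 in blood at 180 min was 1.25 as reported and 0.45 by limma, and IER2 in blood at 30 min was -0.57 as reported and -0.23 with TMM factors. With edgeR p-values adjusted as if over every gene in the authors' own adjustment, 0 members passed in any table, with the log2 changes as reported: 1.46 for FOS and 1.09 for DUSP1 in blood at 30 min, 1.68 for FOSL2 in blood at 180 min, -2.21 for FOSB, 1.27 for FOSL2 and -0.90 for IER2 in 24H muscle at 30 min, 1.25 for FOSL2 there at 180 min and 0.96 for FOSL2 in 6D muscle at 180 min. The same adjustment left the 6D muscle count at 30 min at 0. The DESeq2 Wald test passed 4 members in blood at 30 min, adding FOSB (1.96) and IER2 (-0.57), and 3 in blood at 180 min, adding FOS (1.27) and DUSP1 (1.25), beside 82.6% and 96.2% of the listed genes. It passed 2 in 24H muscle at 180 min, adding FOSB (-1.68), beside 98.2%, and 1 in 6D muscle at 30 min, FOSL2 (1.29), beside 46.7%. Scaling by library totals passed 2 in blood at 180 min, adding FOS (1.29), beside 46.8%. The unadjusted exact permutation test passed IER2 in blood at 30 min (-0.53) and 2 members in 6D muscle at 30 min, FOSB (-1.67) and FOSL2 (1.17). FOSB in 24H muscle at 30 min missed the threshold by limma and by that test (-1.22 each).

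Leaving out each library in turn gave these ranges of log2 change in blood: 0.91 to 1.64 for FOS and 0.97 to 1.26 for DUSP1 at 30 min, and 0.75 to 1.47 for FOS, 1.43 to 1.86 for FOSL2 and 0.60 to 1.47 for DUSP1 at 180 min. In 24H muscle they were -1.17 to -0.76 for IER2 at 30 min and -2.07 to -1.02 for FOSB at 180 min. In 6D muscle they were -2.70 to -1.31 for FOSB and 0.95 to 1.57 for FOSL2 at 30 min, and 0.80 to 1.25 for FOSL2 at 180 min. The count of members past the threshold ranged between 0 and 2 in blood at 30 min, 0 and 3 in blood at 180 min, 1 and 2 in 24H muscle at 180 min, 0 and 2 in 6D muscle at 30 min, and 0 and 1 in 6D muscle at 180 min. The differences between 180 min and 30 min changed sign when single libraries were left out, between -0.0904 and 0.41 for FOSB and -0.24 and 0.25 for FOSL2 in 24H muscle, and between -0.36 and 0.0428 for FOSL2 in 6D muscle; none passed. The difference of FOSL2 between 6D and 24H controls ranged between -0.79 and -0.45 and passed without 1 library.

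With the goat number as a replicate block, the tissue difference of the FOSB change at 30 min was 2.27 against 24H and 2.19 against 6D muscle, with an adjusted exact permutation p of 0.193 for both, from 4 transported and 7 control goats. Same-numbered blood and muscle libraries did not deviate together in every pair (correlation over 0.1 in 3 of 4 transported and 5 of 7 control pairs of blood and 24H muscle at 30 min, and in 0 of 4 transported and 1 of 7 control pairs of blood and 6D muscle at that time), so this pairing rests on the numbers alone. The block left the other paired comparisons on the same side of the threshold, with an adjusted exact permutation p of 0.082 in each comparison of 6D with 24H muscle. With log2(FPKM + 1) in place of 0.1 no comparison changed side. Low counts limit FOSB in control blood and FOSL2 in 6D controls (11 to 101 counts).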
